A study of Arabidopsis thaliana and Medicago truncatula and Solanum lycopersicum with 15 samples.

Results

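Open chromatin was compared between the root tips of tomato (Solanum lycopersicum) and Arabidopsis thaliana. ATAC-seq finds open DNA with the Tn5 transposase, which cuts and tags stretches that nucleosomes leave accessible, and each deposited list gives the regions that a peak finder called in 1 sample. The members were every region on a numbered chromosome in the lists of 4 of the 15 samples: chromosomes 1 to 12 of the SL2.50 tomato sequence names and chromosomes 1 to 5 of Arabidopsis. They came to 393257 regions, of 753507 regions in the 14 lists of the series. The tomato lists held 182814 regions in replicate 1 and 163465 in replicate 2, and the Arabidopsis lists 23288 and 23690.

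The tomato plants were M82, and the Arabidopsis plants Col-0. Both species were grown on vertical agar plates with 16 h of light and 8 h of dark, and the terminal 1 cm of the root was taken. Every plant of both groups carried UBQ10p:NTF/ACT2:BirA, a constitutive pair of transgenes in which a ubiquitin promoter drives a nuclear envelope tag and an actin promoter drives the biotin ligase that labels it. Tagged nuclei of all root tip cell types were then captured on streptavidin beads (the INTACT method), and 50000 nuclei went into each transposase reaction. Each group had 2 biological replicates, so each list describes a mixture of cell types, and the lists do not say which cells opened a region. The lists carry no gene names, reads or scores, so the tissue label could not be checked against marker genes and the depth behind a region is unknown. Purified genomic DNA was a control in the series, and it was not analysed here.

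As background, plant chromosomes carry euchromatin, which holds most genes and opens at promoters and other regulatory DNA, and heterochromatin, which is rich in transposable elements and is kept compact by DNA methylation and histone marks. In tomato the heterochromatin forms long blocks around the centromeres, and most genes sit in the distal parts of the arms. In Arabidopsis, whose genome is small, heterochromatin is mostly held close to the centromeres and in a few small knobs, and genes fill most of the arms. The root tip holds the meristem, where cells divide, and the zone where they elongate. The SL2.50 assembly was made from a tomato cultivar other than M82, so DNA found only in M82 has no place in it.

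Open regions were about as frequent per Mb in the 2 species, although the tomato chromosomes were much longer. The numbered chromosomes spanned 802 Mb in tomato and 119 Mb in Arabidopsis, a ratio of 6.73, measured from the first base to the end of the last listed region of each chromosome. Tomato had 228 and 204 regions per Mb in its replicates, and Arabidopsis had 196 and 199. The lists did not overlap, but the tomato value nearest to Arabidopsis lay only a few regions per Mb above it, and tomato replicate 1 lay further off. The means were 216 ± 17.1 and 197 ± 2.39 regions per Mb (SD, n = 2 lists each), a log2 ratio of tomato to Arabidopsis of 0.13. That log2 ratio was 0.048 without tomato replicate 1 and 0.21 without tomato replicate 2. Taken as a median over chromosomes it was 0.030, and the lists then overlapped. The regions covered less of the tomato chromosomes, with 5.36 ± 0.875% of the span against 7.18 ± 0.297% in Arabidopsis (SD, n = 2), a log2 ratio of −0.43. After joining regions under 500 bp apart it was −0.11, and the lists overlapped.

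With 2 lists against 2, the 6 ways to assign the lists to the species allow no p below 0.333 in a two-sided exact permutation test. Of 17 measures tested, 16 had lists that did not overlap between species, and each of those had an exact permutation p = 0.333, or 0.354 after Benjamini-Hochberg adjustment over the 17 tests. A difference is therefore read here against the spread between replicates, and no p is repeated for those measures. Shares of all regions of a list had 95% Wilson intervals no wider than ± 0.642 points, and shares within a zone had wider ones. They cover counting error only.

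Density varied more between tomato chromosomes than between Arabidopsis chromosomes. On the mean of both lists, tomato chromosome 2 was the densest at 316 regions per Mb, with 327 and 305 in its replicates. Chromosome 12 was the sparsest at 175, with 191 and 159, so the densest had 1.80 times the density of the sparsest. Chromosome 6 stood close to chromosome 2, and the median of the 12 chromosomes was 202 regions per Mb. In Arabidopsis the range ran from 174 on chromosome 3 to 216 on chromosome 2, a ratio of 1.25. The coefficient of variation between chromosomes was 22.0 ± 2.87% in tomato and 8.17 ± 2.43% in Arabidopsis (SD, n = 2 lists), a difference of 13.9 points. The order of the chromosomes was shared by the replicates, with a Spearman rho of 0.965 over the 12 tomato chromosomes and 1 over the 5 of Arabidopsis. These points share a library within each list, so the coefficients are descriptions. Tomato replicate 1 exceeded replicate 2 on every chromosome, while the Arabidopsis replicates differed in either direction. Span and density had a Pearson r of −0.359 over the 12 tomato chromosomes, given as a description, and the longest, chromosome 1, was denser than the median.

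**Figure D1:**
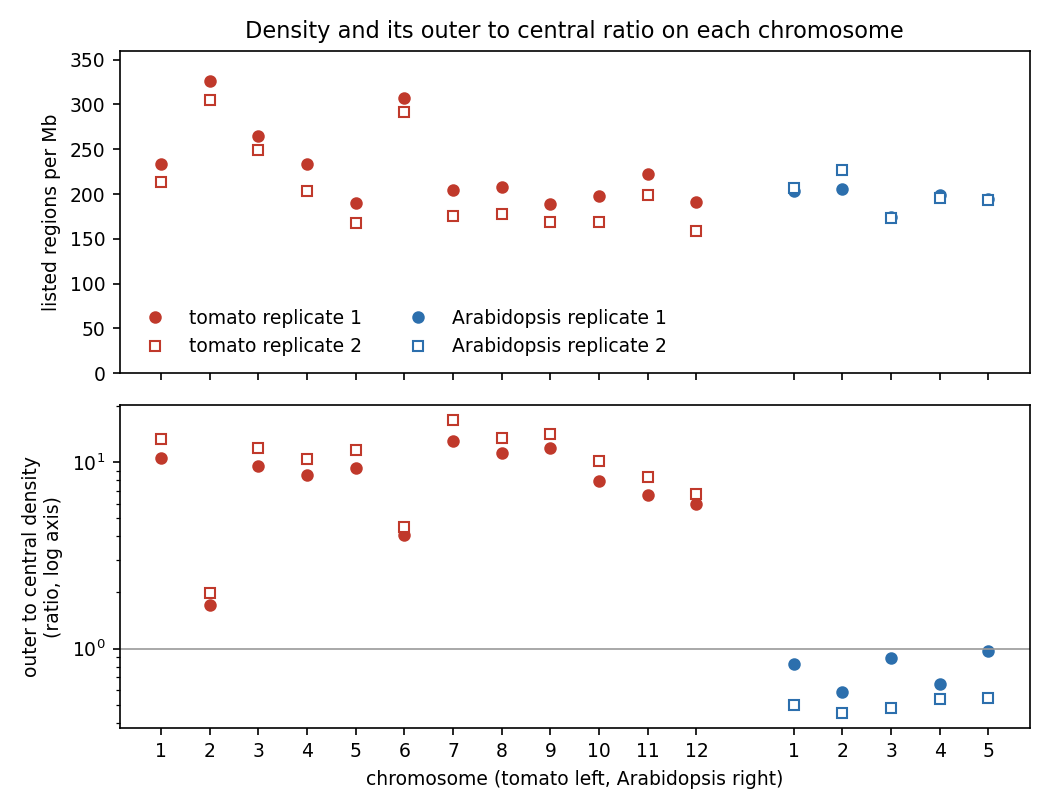
Upper panel: listed regions per Mb on each chromosome, with 1 point per list. Lower panel: density in the outer zone divided by density in the central zone, on a log axis with a line at equality. Tomato chromosomes 2 and 6 are the densest and have the lowest ratios of the tomato chromosomes, and every Arabidopsis point lies under the line.

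Position along the chromosome separated the species far more than density did. Each chromosome was cut into 20 equal bins. Bins 1, 2, 19 and 20 form the outer zone with 20% of the length, bins 7 to 14 the central zone with 40%, and the rest the intermediate zone. In tomato, the outer zone held 50.7% and 53.4% of all regions in the replicates. In Arabidopsis it held 16.4% and 12.3%, below its share of the length. The means were 52.1 ± 1.89% and 14.3 ± 2.92% (SD, n = 2), a difference of 37.7 points, and the lists were far apart. The central zone was the converse: it held 13.6 ± 1.14% of the tomato regions and 45.7 ± 4.71% of the Arabidopsis regions, a difference of −32.1 points.

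The pooled tomato profile was a deep trough between high ends. Bin 20 was the densest, with 747 regions per Mb in each replicate, and bin 6 the sparsest, with 49.1 and 36.4. The mean density of bin 20 was 17.5 times that of bin 6. The ends were unequal: bin 1 had 615 and 533 regions per Mb, below bin 20 in both lists. In Arabidopsis the profile was shallow. Bin 8 was the densest, with 248 and 284 regions per Mb, and bin 20 the sparsest, with 151 and 103, a ratio of means of 2.09. The coefficient of variation over the 20 bins was 100 ± 6.19% in tomato and 26.4 ± 4.45% in Arabidopsis (SD, n = 2), a difference of 73.9 points.

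**Figure D2:**
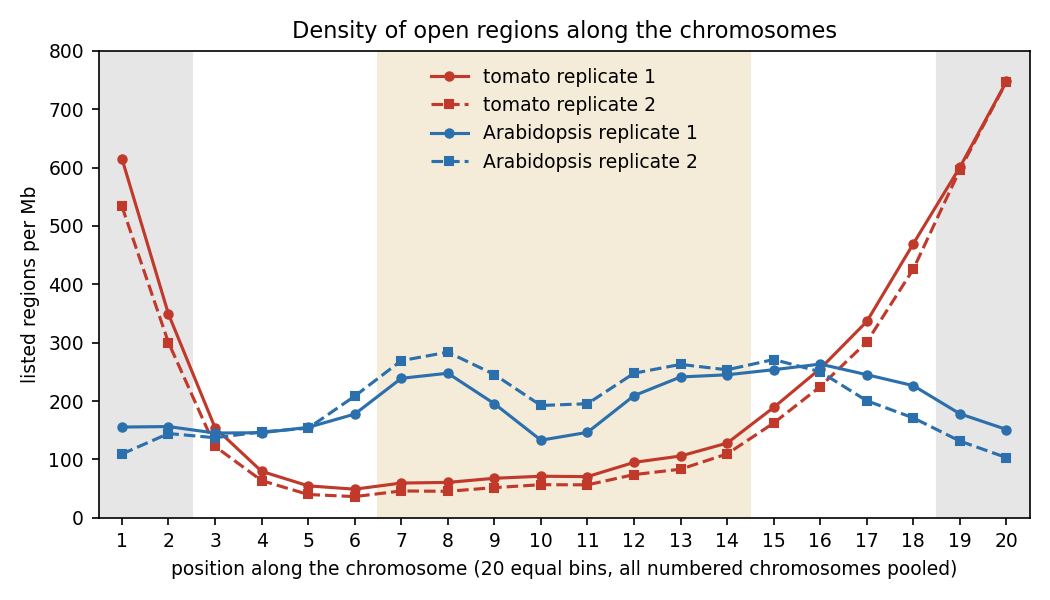
Listed regions per Mb in 20 equal bins, all numbered chromosomes of a species pooled, with 1 line per list; grey marks the outer and tan the central zone. Tomato rises to 747 regions per Mb in bin 20 and falls to 36.4 in bin 6, while both Arabidopsis lines stay between 103 and 284.

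The Arabidopsis replicates differed from each other along this axis more than the tomato replicates did. Over the 20 bins the replicate profiles had a Pearson r of 0.997 in tomato and 0.780 in Arabidopsis, given as a description. Arabidopsis replicate 2 was lower than replicate 1 at the ends and higher in the centre. Its outer density was 122 regions per Mb against 160 in replicate 1, and its central density 244 against 207. The ratio of outer to central density was 0.774 in replicate 1 and 0.501 in replicate 2. In tomato that ratio was 7.02 and 8.32, so both species had an internal spread that was small beside the distance between them.

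Within the Arabidopsis centre the pooled profile dipped at bins 10 and 11, to 133 and 146 regions per Mb in replicate 1 and to 192 and 195 in replicate 2. Single chromosomes showed deeper minima. On chromosome 1, bin 10 had 31.6 and 76.9 regions per Mb. On chromosome 2 replicate 1 was lowest in bin 5, with 17.3 and 107, and on chromosome 4 it was bin 4, with 10.8 and 89.3. Chromosome 3 was low in bin 12, with 19.6 and 117, and chromosome 5 in bin 10, with 20.02 and 122. These bins were the lowest of their chromosome in replicate 1 and were singled out after their values were seen. In replicate 2 they were the lowest on chromosomes 1 and 4, while the lowest was bin 20 on chromosome 2 and bin 1 on chromosomes 3 and 5. In each of them replicate 1 was the lower list. Background knowledge places the Arabidopsis centromeres near the middle of chromosomes 1, 3 and 5 and nearer the start of chromosomes 2 and 4; no centromere coordinates were read here.

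On every tomato chromosome the outer zone was denser than the central zone, by unequal amounts, but chromosome 2 had no dense start. Outer density exceeded central density in both lists on 12 of 12 tomato chromosomes and on 0 of 5 Arabidopsis chromosomes. On tomato chromosome 7 the ratio was the highest, 12.95 and 16.8 in the replicates. Chromosome 2 had the lowest, 1.72 and 1.996, and the median of the 12 mean ratios was 9.98. Chromosome 6 followed at 4.09 and 4.51. In Arabidopsis the ratio ran from 0.450 to 0.972 over the chromosomes and lists, and chromosome 5 of replicate 1 was nearly even.

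Tomato chromosome 2 was one-sided. Its first 2 bins had 53.7 regions per Mb on the mean of both lists and its last 2 bins had 775. Its low stretch began at the start of the chromosome, and its bin 5 had 14.1 regions per Mb in each list. As background, tomato chromosome 2 is acrocentric and carries the ribosomal RNA gene cluster on its short arm. On the other 11 chromosomes both ends were denser than the centre: the first 10% ran from 321 regions per Mb on chromosome 1 to 635 on chromosome 11, and the last 10% ran from 536 on chromosome 12 to 793 on chromosome 3. The last 10% was denser than the first in both lists on 9 of 12 tomato chromosomes, and the first was denser than the last in both lists on 1.

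**Figure D3:**
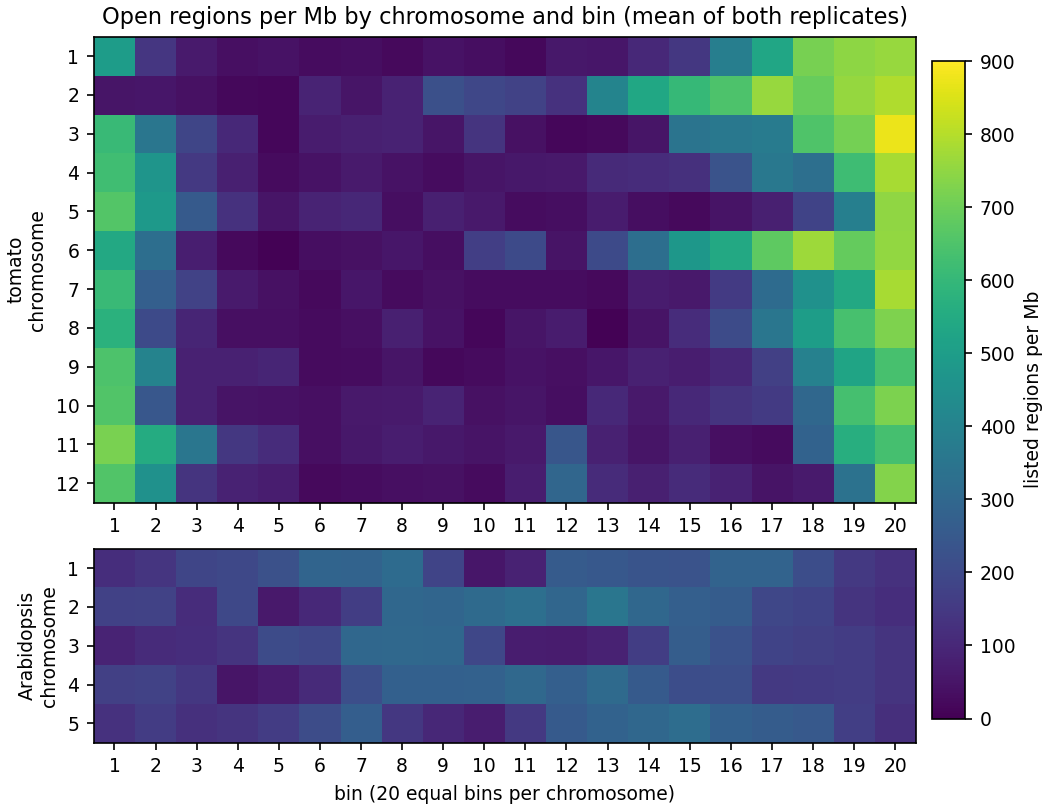
Listed regions per Mb by chromosome (vertical) and bin (horizontal), as the mean of both lists, on 1 colour scale for both species. Tomato chromosomes are bright at both ends except chromosome 2, whose first 2 bins average 53.7 regions per Mb. Arabidopsis stays in the lower part of the scale, at most 354 regions per Mb, and the lowest bin of each chromosome lies between 50.1 and 71.2.

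The sparse part of the tomato chromosomes was long. Of 240 tomato bins, 121 had under 100 regions per Mb in both lists, against 3 of 100 Arabidopsis bins. Taken list by list, the counts were 121 and 138 in tomato and 13 and 9 in Arabidopsis, so the Arabidopsis lists were low in mostly different bins. The longest run of such bins on a tomato chromosome was 5 to 12 bins, with a median of 8.5. It spanned 54.2 Mb on chromosome 1, the longest stretch, and at least 13.8 Mb on each of the other chromosomes. The 12 runs came to 349 Mb. In Arabidopsis no run low in both lists was longer than 1 bin, and the longest in a single list was 3 bins in replicate 1 and 2 in replicate 2.

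Windows of a fixed 500 kb gave the same order at equal length. Over 1597 tomato windows, the densest 25% held 71.5 ± 2.57% of the regions, against 38.7 ± 0.323% over 235 Arabidopsis windows (SD, n = 2 lists). To reach 50% of the regions took 15.1 ± 1.02% of the tomato windows and 34.0% of the Arabidopsis windows in each list. Windows above 400 regions per Mb made up 23.7% and 21.8% of the tomato windows, and 0% and 0.43% of the Arabidopsis windows. Windows under 50 regions per Mb made up 31.7% and 38.5% in tomato, and 9.36% and 0.43% in Arabidopsis. The Arabidopsis low windows were nearly all in replicate 1. Window counts of the replicates had a Pearson r of 0.986 in tomato and 0.787 in Arabidopsis.

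Neighbouring tomato regions lay close together. The gap from the end of a region to the start of the next had a median of 476 and 560 bp in tomato and of 2052 and 2036 bp in Arabidopsis. The means of those medians were 518 ± 59.4 and 2044 ± 11.3 bp (SD, n = 2), so the Arabidopsis median was 3.95 times the tomato median, a log2 ratio of −1.99. Gaps under 500 bp made up 49.1 ± 3.24% of tomato gaps and 21.7 ± 1.46% of Arabidopsis gaps, a difference of 27.4 points. Among regions of at least 300 bp, which exceeds the smallest width of every list, the differences were much smaller. The log2 ratio of median gaps was −0.43 and the difference in gaps under 500 bp was 5.46 points. That filter left 44.6 regions per Mb in tomato and 98.5 in Arabidopsis. It removed a larger part of the tomato lists, which by construction lengthens the tomato gaps more. With the widest 50% of each list kept, the log2 ratio was −1.97 and the difference 18.1 points. At equal regions per Mb, with the widest kept, they were −1.85 and 24.5 points. With 50% reciprocal overlap in the other list, they were −0.89 and 6.53 points.

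The mean gap was nearly the same in both species, as the densities require: 4124 and 4672 bp in tomato, 4734 and 4672 bp in Arabidopsis. The mean was 8.50 ± 0.226 times the median in tomato and 2.30 ± 0.00851 times in Arabidopsis (SD, n = 2), a log2 difference of 1.89. Tomato thus combined shorter typical gaps with a longer tail. Its gaps over 10 kb were a smaller share of all gaps, 4.18 ± 0.330% against 12.5 ± 0.779% in Arabidopsis. Among regions of at least 300 bp that difference was lost, with 27.4% and 28.7% and overlapping lists. Here too the filter removed a larger part of the tomato lists. With the widest 50% of each list kept, the difference was −18.9 points. At equal regions per Mb, with the widest kept, it was −7.96 points. As listed, the gaps over 10 kb took 74.7 ± 0.752% of the tomato span, against 49.8 ± 0.251% of the Arabidopsis span.

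The tail was counted at 100 kb. Tomato had 1427 and 1439 gaps over 100 kb, and they held 51.8% and 53.0% of the span. Arabidopsis had 50 in replicate 1, with 7.76% of the span, and 5 in replicate 2, with 0.676%. The Arabidopsis replicates differed widely in this count, and both stayed far under the tomato lists.

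Stretches of 100 kb or more with no region in either list numbered 1424 in tomato. They held 414 Mb, or 51.6% of the span, and were found on all 12 chromosomes. By zone, 69 had their centre in the outer, 630 in the intermediate and 725 in the central zone. Arabidopsis had 5 such stretches with 0.806 Mb, all in the central zone, on 2 chromosomes. A stretch without a region is one where none was called, and the lists do not say whether reads could be placed there.

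**Figure D4:**
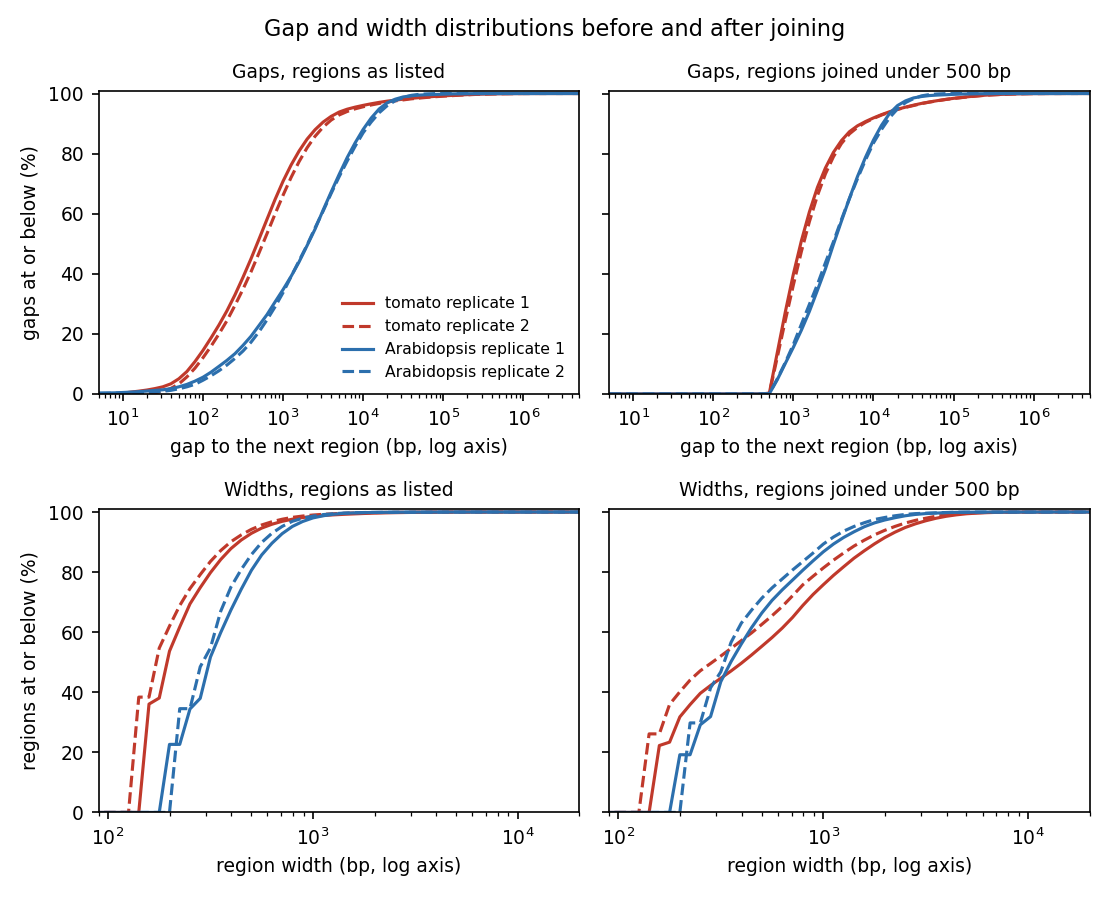
Cumulative share of gaps (upper panels) and of region widths (lower panels), for regions as listed (left) and after joining regions under 500 bp apart (right), on log axes with 1 line per list. Tomato gaps lie left of the Arabidopsis gaps over most of the range and then rise more slowly to a tail beyond 1000000 bp, and the width lines of the species cross after joining.

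The median gap as listed depended little on position in tomato. Median gaps were 471 and 546 bp in the outer zone, 481 and 567 bp in the intermediate zone, and 485 and 609 bp in the central zone. After joining, they rose from 1191 and 1248 bp in the outer zone to 1374 and 1639 bp in the central zone. Gaps over 10 kb rose from 2.06% and 2.19% of the listed gaps in the outer zone to 8.30% and 10.4% in the central zone. Over the same zones the tomato density fell from 578 and 544 through 199 and 172 to 82.3 and 65.4 regions per Mb in the replicates. In Arabidopsis the median gap moved with density, from 3308 and 4080 bp in the outer zone to 1721 and 1563 bp in the central zone. The outer median divided by the central median was 0.934 ± 0.0527 in tomato and 2.27 ± 0.486 in Arabidopsis (SD, n = 2), a log2 difference of −1.26. This ratio was added after the zones' gaps were seen, and the lists did not overlap (exact permutation p = 0.333, the smallest possible).

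The share of length in long gaps rose towards the tomato centre, and the groups of regions between such gaps changed as well. Gaps over 50 kb took 12.5% of the outer zone, 62.9% of the intermediate zone and 82.4% of the central zone, as means of both lists. In Arabidopsis the central zone had 18.1% in such gaps in replicate 1 and 4.31% in replicate 2. To describe the groups, runs of regions with no gap over 10 kb were called islands, a term and limit chosen after the gaps were seen. Tomato had 7229 islands in each list, and they covered 25.8% and 24.7% of the span. Arabidopsis had 2785 and 3094, which covered 50.3% and 49.9%.

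Tomato islands were denser inside, which follows by arithmetic from similar densities per Mb and a smaller share of the span in islands. The tomato islands held 883 and 824 regions per Mb of island, against 389 and 399 in Arabidopsis. Their number per Mb was lower towards the tomato centre at this limit, from 12.05 in the outer zone of replicate 1 and 12.04 of replicate 2 to means of 9.67 and 6.84 in the intermediate and central zones. Their length was lower too, with medians of 27417, 8634 and 7068 bp. The share of each zone inside islands was 67.0 ± 0.250%, 21.4 ± 0.982% and 8.26 ± 0.779% (SD, n = 2). The density inside them was 838, 863 and 892 regions per Mb over the zones, a value that the 10 kb limit holds from below. With gaps of up to 50 kb allowed, it was 641, 533 and 444, and the islands per Mb were 1.19, 3.602 and 3.62. In Arabidopsis the outer zone had the lowest share in islands in both lists, with 44.3%, 52.8% and 50.8% over the zones in replicate 1 and 31.8%, 50.7% and 58.2% in replicate 2. At a 20 kb limit replicate 1 was lowest in the centre, at 69.0%, against 74.3% in its outer zone. Over whole chromosomes the island lengths of the species were alike at this limit, with medians of 10964 and 9431 bp in tomato and 11564 and 9560 bp in Arabidopsis. Islands of at least 100 kb numbered 0.540 and 0.537 per Mb in tomato and 0.470 and 0.630 per Mb in Arabidopsis. At a 20 kb limit Arabidopsis had more of them, 2.08 and 2.12 per Mb against 0.579 and 0.541. The longest tomato islands were 774341 and 915055 bp, and the longest in Arabidopsis 319263 and 264297 bp.

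**Figure D5:**
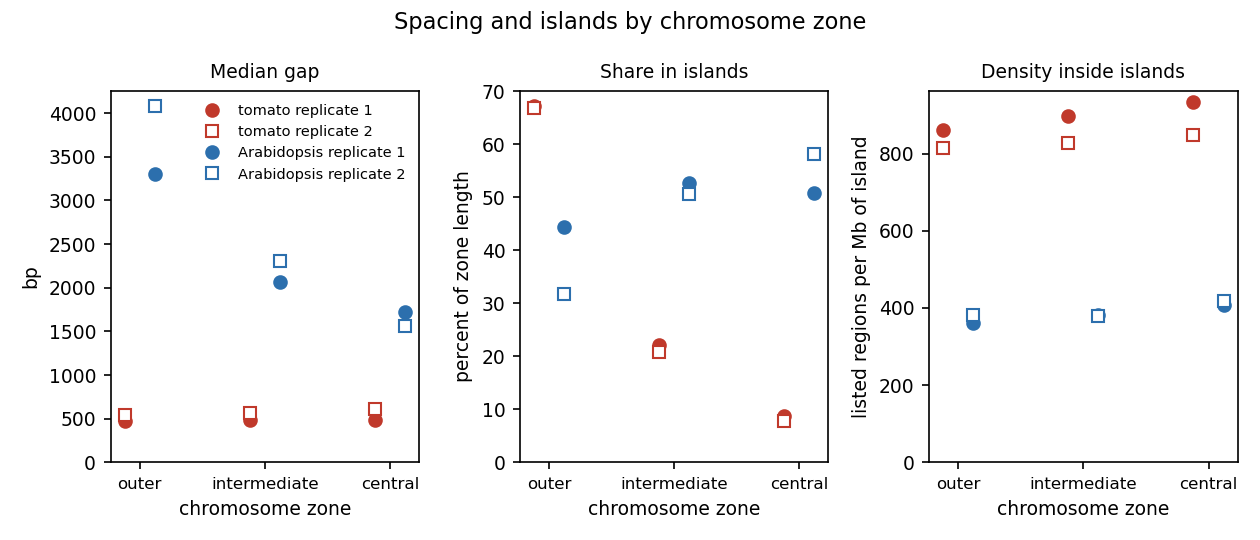
Median gap, share of zone length inside islands and regions per Mb of island, by chromosome zone, with 1 point per list. The tomato median gap stays between 471 and 609 bp while the share in islands drops from about 67.0% to 8.26%, and the Arabidopsis gap shortens towards the centre.

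The listed tomato regions were narrower. The median width was 190 and 168 bp in tomato, and 307 and 287 bp in Arabidopsis. The means of the medians were 179 ± 15.6 and 297 ± 14.1 bp (SD, n = 2), a log2 ratio of −0.73. The peak finder's floor moved with this difference. The commonest width was 142 bp in tomato replicate 1, at 36.1% of its regions, and 128 bp in replicate 2, at 38.4%. In Arabidopsis it was 191 bp at 22.7% and 211 bp at 34.5%, so each list had a pile of regions at or near its own smallest width. Among regions of at least 300 bp, above the smallest width of every list, the median width was 411 bp in tomato and 426 bp in Arabidopsis. The log2 ratio was −0.050 with overlapping lists. The cut sets the same lower limit for both species, and it removed a larger part of the tomato lists. With the widest 50% of each list kept, the log2 ratio of median width was −0.66. Regions of 500 bp or more made up 7.16% and 5.83% of the tomato lists, and 19.6% and 14.4% of the Arabidopsis lists.

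Width varied little with position in tomato. Its mean median width was 178.5 bp in the outer, 178.5 bp in the intermediate and 181 bp in the central zone, and it stayed within 177.5 to 180 bp over the 12 chromosomes. In Arabidopsis it was 285.5, 291.5 and 316.5 bp over the zones. The widest single regions were in tomato, at 62533 and 62492 bp, against 5725 and 5743 bp in Arabidopsis.

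Joining regions under 500 bp apart changed which species was denser. It reduced the tomato lists to 88860 and 86939 joined regions, a loss of 51.4% and 46.8%. The Arabidopsis lists became 18001 and 18800, a loss of 22.7% and 20.6%. Joined density was 111 and 108 per Mb in tomato and 151 and 158 in Arabidopsis. The means were 110 ± 1.69 and 154 ± 4.74 per Mb (SD, n = 2), a log2 ratio of −0.49, so tomato was denser as listed and sparser after joining. The joined tomato lists also differed less from each other than the listed ones.

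The difference in median width was lost on joining at 500 bp. The joined median width was 404 and 287 bp in tomato and 353 and 324 bp in Arabidopsis. The lists overlapped, with a log2 ratio of 0.0099 and an exact permutation p = 1. The tomato spread on this measure, 345.5 ± 82.7 bp (SD, n = 2), was wide, and 2 lists do not show that the species have equal widths. Joining raised the tomato median by a factor of 2.13 in replicate 1 and 1.71 in replicate 2, and the Arabidopsis median by 1.15 and 1.13. The direction depended on the joining distance. The log2 ratio of median width was −0.56 at 250 bp and 1.19 at 1000 bp, and the lists overlapped in neither. Mean width after joining at 500 bp was 693 bp in tomato and 528 bp in Arabidopsis, a log2 ratio of 0.39 without overlap of the lists. The joined median gap kept its direction, with 1282 ± 70.7 bp in tomato and 3141.5 ± 60.1 bp in Arabidopsis, a log2 ratio of −1.29. Among regions of at least 300 bp that ratio was −0.15 and the lists overlapped, but the filter removed a larger part of the tomato lists. It was −1.43 with the widest 50% of each list kept, and −1.21 at equal regions per Mb.

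Joined tomato regions were built from more pieces. Each held 1.97 ± 0.125 listed regions on average, against 1.28 ± 0.0238 in Arabidopsis (SD, n = 2). Regions that stayed single made up 55.5 ± 4.01% of the joined tomato regions and 79.9 ± 1.43% of those in Arabidopsis, a difference of −24.4 points. Joined regions of 5 or more pieces were 8.10% and 6.16% in tomato, and 0.544% and 0.436% in Arabidopsis. Tomato had 524 and 405 of 10 or more pieces, or 0.653 and 0.505 per Mb, and Arabidopsis 1 in each list, or 0.0084 per Mb. The joined tomato widths therefore spread further: their 90th percentile was 1843 and 1529 bp, against 1159 and 1034 bp. Joined regions of at least 5 kb numbered 0.657 and 0.408 per Mb in tomato, and 0.126 and 0.0672 per Mb in Arabidopsis. Members of a cluster were slightly wider than single regions in both species, with medians of 195 against 181 bp in tomato replicate 1 and of 340 against 297 bp in Arabidopsis replicate 1.

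Replicates shared whole islands more than single regions in both species, by a wider margin in tomato. Islands are far longer than regions, which by itself raises overlap, and no chance level was computed. Of the tomato regions, 50.1% in replicate 1 and 59.1% in replicate 2 overlapped a region of the other list by at least 1 bp, and 56.2% and 56.6% did so in Arabidopsis. Measured as shared over combined length, the lists agreed over 28.9% in tomato and 37.05% in Arabidopsis. For islands the shared over combined length was 86.6% in tomato and 60.3% in Arabidopsis. Of the tomato islands, 95.9% and 97.8% overlapped an island of the other list, and in Arabidopsis 89.1% and 82.7%. Shared regions were wider: medians were 226 against 178 bp in tomato replicate 1, and 396 against 242 bp in Arabidopsis replicate 1. A wider region meets the 1 bp criterion more easily, so a difference in this direction is built into the measure.

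The share of regions found in the other list also varied with position, in opposite ways in the replicates. In tomato the share of replicate 1 found in replicate 2 fell from 51.8% in the outer zone to 46.6% in the central zone. The share of replicate 2 found in replicate 1 rose from 56.4% to 66.3%. In Arabidopsis replicate 1 the share rose from 48.5% to 61.9%, and in replicate 2 it fell from 65.3% to 53.9%. In each species the list with fewer regions in a zone had the higher shared percentage there. This follows in large part by arithmetic, since similar numbers of overlaps are counted from either list. Overlap by chance also rises with density and was not computed. The shares therefore do not show whether agreement depended on position.

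Single places illustrate the contrast, chosen as the extremes found in both lists and given with coordinates counted from 1. The widest joined tomato region lay on chromosome 1 from 1840732 to 1903697, at 62966 and 62492 bp, in bin 1. It was made of only 2 listed regions in replicate 1 and 1 in replicate 2. The next, on chromosome 3 from 64806985 to 64827457, joined 12 and 30 listed regions. The last of these, on chromosome 11 from 49628128 to 49644082, was 15432 and 15925 bp wide. The densest 100 kb of tomato was on chromosome 3 from 70500001 to 70600000, in bin 20, with 135 and 136 regions.

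The longest tomato stretches without a region were in the interior. On chromosome 1 none was called from 36606042 to 40835612, or 4229571 bp, in bin 8. On chromosome 2 the stretch of 3280736 bp started at 9745248 and ended at 13025983. Chromosome 3 had one of 2925154 bp, between 13222681 and 16147834. In Arabidopsis the longest was on chromosome 5 from 14305692 to 14517623, or 211932 bp. Both of the next were on chromosome 1, one of 209044 bp between 15206067 and 15415110 and one of 173740 bp between 14722174 and 14895913. The longest tomato stretch was longer than any single Arabidopsis bin, the largest of which was 1.52 Mb.

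The widest joined Arabidopsis regions were shorter than the widest in tomato. The first lay on chromosome 2 at 3614857 to 3628201, with 13023 and 13345 bp in the replicates. The next was 10369 and 12465 bp on chromosome 5, starting at 11726035 and ending at 11738499. The last was 8431 and 8445 bp on chromosome 3, starting at 14194990 and ending at 14203435. The densest 100 kb was on chromosome 3 from 8100001 to 8200000, with 54 and 47 regions, fewer than the densest tomato window in both lists. No gene was assigned to these places, since no annotation of the builds of the lists was used.

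The root tip lists of Medicago truncatula and rice, made with the same capture method, show where the pair stands. Their outer zones held 21.9% and 19.8% of regions in Medicago, and 25.6% and 25.1% in rice, above Arabidopsis and far under tomato. Tomato also had the shortest median gap of the 4 species in both lists, with 3425 and 3001 bp in Medicago and 5262 and 2226 bp in rice. The mean gap was 3.17 times the median in Medicago and 2.59 and 2.95 times in the rice lists, nearer to Arabidopsis than to the 8.50 of tomato. These values are descriptions, no test was made with them, and the rice lists differed widely from each other, at 70.5 and 144 regions per Mb.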

How the data were processed

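Nuclei of 1 cm root tips were captured by INTACT and treated with Tn5 transposase in 2 replicates per species, per the labels' protocols. The submitters' processing notes name Bowtie2 and HOMER without versions, and TAIR10 and IRGSP-1.0 as builds; the tomato lists carry SL2.50 sequence names, and how tomato reads were aligned is not given in the sources used here. The deposited lists hold start and end coordinates with no counts, score or signal, so no filter on depth and no count test was possible. HOMER's region mode and a setting of 150 are named in the titles of the deposited lists.

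Regions on numbered chromosomes were kept. Spans ran from base 1 to the end of the last region over both lists. A midpoint set the bin or zone of a region, an island or an empty stretch. The gaps of a zone are those with both flanking regions in it, so gaps across a zone border were left out. Gaps are end to next start, and joining merged regions under 500 bp apart. Each of 17 measures was compared between the 2 lists of each species by a two-sided exact permutation test with Benjamini-Hochberg adjustment. Density, covered share, gaps and widths were compared as log2 ratios and shares as points. Replicates are biological replicates per the series' text, and the spread is between these lists.

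The text names, per species, the densest and sparsest chromosome and bin, the 3 widest joined regions and 3 longest empty stretches of both lists, and the densest 100 kb window; others are named as chosen after their values were seen. The members, measures and zones were chosen with earlier results of these data known. Alternatives were joining at 250 and 1000 bp, width and overlap filters, 10 and 40 bins, equal regions per Mb, every sequence, medians over chromosomes, leaving out each list, and a replicate block. Simulated lists, among them lists of 18000 and 7500 regions, and short checks of overlap and of the permutation test returned 39 of 39 planted values. The coefficient of variation over bins was not among them. Gene placement was not run, and no sequence was read. Python 3.11.15, NumPy 2.4.6, SciPy 1.17.1 and Matplotlib 3.10.9 were used.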

Additional observations from a re-analysis of the deposited data

Results flagged for a closer look

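Outer and central zones differed in opposite directions in the species. The log2 ratio of outer to central density was 2.93 in tomato and −0.68 in Arabidopsis, positive in both tomato lists and negative in both Arabidopsis lists. This contrast was not tested by itself; the outer share of regions, which rests on the same counts, had the smallest exact permutation p that 2 lists against 2 allow, 0.333.

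Regions outside the numbered chromosomes were also listed. The unplaced tomato sequence held 1649 regions in replicate 1 and 1688 in replicate 2, or 75.8 and 77.6 per Mb of its 21.8 Mb, close to the density of the central zone. The Arabidopsis mitochondrial genome held 132 and 120 regions. Both were picked out because they exceed the 3 regions taken as the floor, and the genomic DNA control was not analysed here.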

How the results depend on the processing

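Alternatives other than leaving out a list or the block, and that moved the value at all, gave 182 values over 19 results, of which 163 kept the direction and 59 moved by over 1.5 times. The outer share difference ran from 33.7 to 43.1 points, and the log2 difference in mean to median gap from 1.60 to 2.01. Spacing moved further: median gap from −2.07 to −0.43, gaps under 500 bp from 5.46 to 27.5 points, gaps over 10 kb from −18.9 to −1.24 points, joined median gap from −1.55 to −0.15, and the share in islands from −53.7 to −6.41 points. Joining by construction removes gaps under 500 bp, so that share was not run after it.

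The difference in density reversed to a log2 ratio of −0.22, −0.49 and −0.94 on joining at 250, 500 and 1000 bp. It was −1.16 for regions of at least 300 bp and −0.67 for those with 50% reciprocal overlap in the other list. Covered share reversed to 0.084 on joining at 1000 bp, and chromosome spread to −20.8 points with every sequence kept, which adds short unplaced and organelle sequences. Median width reversed to 0.0099 and 1.19 on joining at 500 and 1000 bp, and mean width to 0.39 and 1.02, and to 0.088 for regions of at least 300 bp. Joined median width, near 0 to begin with, was −0.56 at 250 bp, −0.46 for the widest 50%, −0.044 for regions of at least 300 bp and −0.075 at equal regions per Mb. It was −0.42 for shared regions, −0.74 with reciprocal overlap and −0.016 as a median over chromosomes. Beyond joining and filters that by construction change width and number, the cause was not tested.

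Leaving out 1 list moved the log2 ratio of density between 0.048 (without tomato replicate 1) and 0.21 (without tomato replicate 2), and that of covered share between −0.60 and −0.26 (without tomato replicate 2). Joined median width ranged from −0.24 to 0.26. With a replicate block the differences were the same by construction, 37.7 points for the outer share, and the 4 assignments allow no exact permutation p below 0.5. By design, the replicate numbers do not pair lists of different species. Between replicates, 11 of 17 measures moved the same way in both species. The measures rest on the same regions, so this count cannot decide whether the lists pair. With no reads or scores, depth could not be equalised.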
